A study of Mus musculus with 6 samples.

Results

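*Bmi1*, the other *Pcgf* genes, the Ring ligase genes and *Commd3* were followed in dorsal midbrain of *Ezh2* cko and control embryos at embryonic day 10.5. The 9 genes are *Bmi1*, *Pcgf1*, *Pcgf2*, *Pcgf3*, *Pcgf5*, *Pcgf6*, *Ring1*, *Rnf2* and *Commd3*, the gene next to *Bmi1*. They were taken by symbol, with every probe set that the annotation of the array assigns to 1 of these symbols alone, which gave 22 of the 45037 probe sets tested and 9 of 18193 genes. The group was chosen from earlier results of the same arrays, in which *Bmi1* was higher in the *Ezh2* cko. The differences between the genotypes are therefore given for these genes as a description with their errors and without p-values of single probe sets. Where members past a p threshold are named or counted, nothing is read from it. No probe set was filtered out for a low signal.

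Each group holds 3 samples of the C57BL/6 strain, with 1 Affymetrix array per sample (called A430 in the methods) and, by the design text, 2 litters per group. The *Ezh2* cko embryos were Wnt1-Cre+ and carried [SET]lox/lox alleles of *Ezh2*. The controls are labelled WT, whereas the methods describe them as either Wnt1-Cre- with [SET]lox/lox alleles or Wnt1-Cre+ with 1 wild-type allele of *Ezh2*, and the labels do not tell which sample was which. Wnt1-Cre is active in the dorsal midbrain and also in the neural crest, and by the study's description recombination in the rostral midbrain is incomplete. The values are log2 signals made with RMA. Signals of different probe sets are not set against each other, since they depend on the probes, and no level marks absence. Nothing in the labels assigns samples to litters, so p-values measure only the spread between these samples.

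Polycomb repressive complex 1 (PRC1) is an E3 ligase that attaches a single ubiquitin to histone H2A. Its catalytic core pairs Ring1 or Rnf2 (also called Ring1B) with 1 of the Pcgf proteins, and the Pcgf protein decides which further subunits join. Bmi1 (Pcgf4) and Pcgf2 (Mel18) form canonical PRC1, which contains Cbx proteins that bind the H3K27me3 mark placed by Ezh2. Pcgf1, Pcgf3, Pcgf5 and Pcgf6 form variant complexes that contain Rybp or Yaf2 in place of a Cbx protein. In neural progenitors, Bmi1 is known for keeping self-renewal by repressing inhibitors of the cell cycle. Commd3 belongs to the COMMD family, whose members assemble in the Commander complex of endosomal recycling.

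*Commd3* and *Bmi1* are direct neighbors in the gene order of GRCm38.p6, with no other annotated gene between them and with the same strand. The sequences around their start sites are shown because the data below bear on this pair, and that of *Pcgf2* because it encodes the closest counterpart of Bmi1 in canonical PRC1. Each runs 5′ to 3′ on the strand of the gene, from 250 bases before to 50 bases after the RefSeq start on GRCm38.p6, and capitals mark the E-box letters CACGTG, to which proteins of the Myc family can bind.
Bmi1, chr2:18676768-18677067, plus strand: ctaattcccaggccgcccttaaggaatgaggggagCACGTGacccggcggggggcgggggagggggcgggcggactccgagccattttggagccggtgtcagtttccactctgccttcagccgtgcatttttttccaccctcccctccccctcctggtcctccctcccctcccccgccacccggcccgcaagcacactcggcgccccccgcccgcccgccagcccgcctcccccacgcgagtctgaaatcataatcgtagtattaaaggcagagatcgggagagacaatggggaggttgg
Commd3, chr2:18672185-18672484, plus strand: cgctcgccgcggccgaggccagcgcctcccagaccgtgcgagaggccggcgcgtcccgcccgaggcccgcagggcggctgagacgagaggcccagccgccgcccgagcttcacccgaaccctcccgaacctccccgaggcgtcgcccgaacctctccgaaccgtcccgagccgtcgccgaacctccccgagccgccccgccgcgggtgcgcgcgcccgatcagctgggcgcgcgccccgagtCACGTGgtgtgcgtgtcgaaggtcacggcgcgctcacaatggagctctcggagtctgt
Pcgf2, chr11:97699599-97699898, minus strand: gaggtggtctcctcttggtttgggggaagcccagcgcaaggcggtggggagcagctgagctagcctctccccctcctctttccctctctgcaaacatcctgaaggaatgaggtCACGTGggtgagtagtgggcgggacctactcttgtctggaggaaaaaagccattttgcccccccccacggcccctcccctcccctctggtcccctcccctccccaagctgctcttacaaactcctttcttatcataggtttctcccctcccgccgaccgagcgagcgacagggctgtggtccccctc

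RefSeq windows were found for 8 of the 9 genes, 10 windows in all because *Pcgf5* has 3, and *Pcgf1* was not matched. The letters CACGTG, which read the same on both strands, occurred once each in the windows of *Bmi1*, *Commd3* and *Pcgf2* and in none of the other windows of these genes. Over all promoter windows of this length, 7.15% (2349 of 32851) hold them. Counted from the start site, the match began at position -215 in *Bmi1*, -8 in *Commd3* and -137 in *Pcgf2*. The E2F letters TTTCCCGC and TTTGGCGC, read on both strands, were in none of the 10 windows (1.07% and 0.514% of all windows), and CCAAT was in 1 window of *Pcgf5* (37.4% of all windows). The window of *Commd3* held 51 CG pairs and that of *Bmi1* 23, a number that 0.715% and 21.5% of all windows reach, against a median of 7. A match of letters describes the sequence and does not show that a factor binds there.

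The signal of *Bmi1* in the *Ezh2* cko midbrain was about double that of controls on both of its probe sets. On 1417493_at, its log2 signal was 11.98, 12.12 and 12.11 in the 3 *Ezh2* cko samples, against 11.13, 10.87 and 11.04 in the controls. The groups did not overlap, and the lowest *Ezh2* cko array lay 0.85 above the highest control. The means were 12.07 ± 0.08 in the *Ezh2* cko and 11.01 ± 0.13 in controls (SD, n = 3 each), a log2 difference of 1.06 (standard error 0.09), or 2.08-fold. On 1448733_at, the signal was 11.40, 11.57 and 11.74 in the *Ezh2* cko samples, against 10.40, 10.33 and 10.46 in the controls. The groups were again apart, with a gap of 0.93 and a log2 difference of 1.17 (standard error 0.10), or 2.25-fold. Across the 6 arrays the 2 probe sets of *Bmi1* followed each other with a Pearson r of 0.988, which describes mostly the step between the genotypes. The annotation ties both sets to the same transcript record, so they are 2 readings of 1 transcript and not independent results. In tissue of mixed cells, more transcript per cell and more cells that express the gene cannot be told apart.

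*Commd3* was higher by nearly the same amount. Its log2 signal on 1433539_at was 10.80, 10.76 and 10.85 in the *Ezh2* cko samples, against 9.79, 9.80 and 9.86 in the controls. The samples of a group lay within 0.1 of each other, while the gap between the groups was 0.90 and the log2 difference 0.98 (standard error 0.07), or 1.98-fold. On 1454642_a_at, the signal was 10.29, 10.34 and 10.74 in the *Ezh2* cko samples, against 9.47, 9.41 and 9.61 in the controls. Here replicate 3 was the highest array of each group and widened the spread in the *Ezh2* cko to a SD of 0.25, with a log2 difference of 0.96 (standard error 0.13). The Pearson r with the mean of the *Bmi1* sets over the 6 arrays was 0.990 for the first set of *Commd3* and 0.976 for the second. These values, too, describe mostly the step between the genotypes. Both sets of *Commd3* are tied to the same transcript record and are not independent results.

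**Figure D1:**
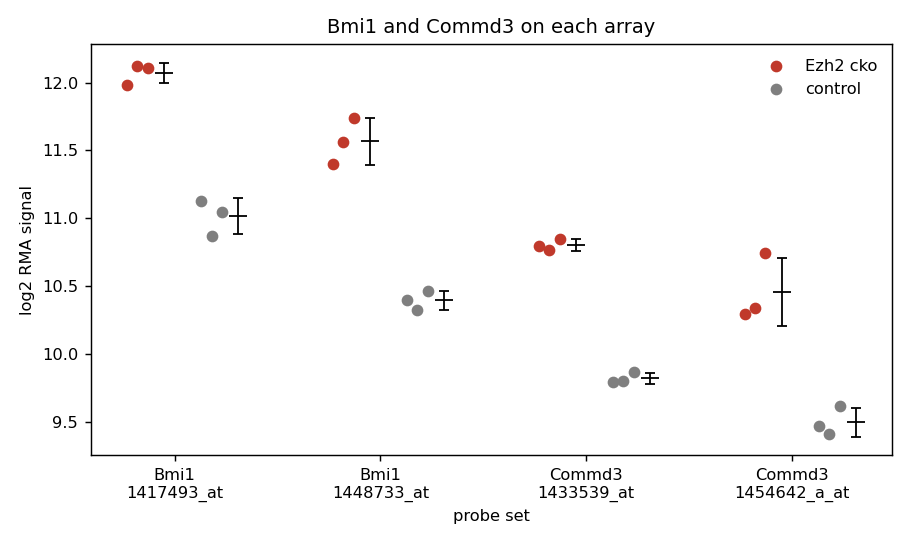
Log2 RMA signal (y axis) of the 2 probe sets each of *Bmi1* and *Commd3* (x axis) on each of 3 *Ezh2* cko (red) and 3 control (grey) arrays, with the mean and SD of each group in black. On all 4 probe sets every *Ezh2* cko array lies above every control, by gaps of 0.67 to 0.93.

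The 4 probe sets of *Bmi1* and *Commd3* were the ones among the 22 that passed a Benjamini-Hochberg adjusted p under 0.05 from limma, all of them higher in the *Ezh2* cko. Over all probe sets tested, 0.184% were higher at this threshold (83 of 45037) and 0.00444% were lower (2 of 45037). None of the 22 was lower. Since this contrast led to the choice of *Bmi1*, nothing is read from the count. The same applies to these calls and to whether they held with arrays left out. Both sets of *Bmi1* and the first set of *Commd3* kept the call without any 1 of the 6 arrays, with log2 differences of 0.98 to 1.12, 1.09 to 1.26 and 0.96 to 1.01. The second set of *Commd3* lost it without any 1 array, although its log2 difference stayed between 0.82 and 1.04. The count over all probe sets dropped to between 20 (without control replicate 2) and 44 (without *Ezh2* cko replicate 2) higher sets when single arrays were left out. It was 32 without *Ezh2* cko replicate 1 and 37 without replicate 3, and 31 and 25 without control replicates 1 and 3.

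*Pcgf2*, which encodes the other Pcgf protein of canonical PRC1, showed no such step. On 1456330_at its log2 signal was 5.48, 5.32 and 5.42 in the *Ezh2* cko samples, against 5.57, 5.75 and 5.22 in the controls. The *Ezh2* cko arrays lay inside the range of the controls, and the log2 difference was -0.11 (95% interval -0.41 to 0.19). The second set, 1420645_at, was at 5.11, 5.23 and 5.15 in the *Ezh2* cko samples, against 5.23, 5.23 and 4.95 in the controls, a difference of 0.02 (-0.20 to 0.25). Both means lie below the median of all probe sets, 5.70, and how far the 2 sets follow their transcript at such signals was not tested.

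The variant PRC1 genes were also near 0. *Pcgf1*, whose product joins the Bcor and Kdm2b complex, had 1 probe set at 6.19, 6.19 and 6.31 in the *Ezh2* cko samples, against 6.05, 6.50 and 6.15 in the controls. These ranges overlap, with a log2 difference of -0.01 (95% interval -0.28 to 0.27). *Pcgf3*, which with its paralog *Pcgf5* defines the variant complexes that hold Auts2, varied little on 1428423_at, at 10.24, 10.24 and 10.26 in the *Ezh2* cko samples, against 10.22, 10.24 and 10.25 in the controls. Its log2 difference was 0.01 (-0.15 to 0.17), and its other sets gave 0.04 and 0.13. *Pcgf5* was at 8.33, 8.30 and 8.18 on 1429564_at in the *Ezh2* cko samples, against 8.23, 8.34 and 8.27 in the controls, a difference of -0.01 (-0.19 to 0.17). On its set 1434666_at, at 8.23, 8.26 and 8.20 in the *Ezh2* cko samples against 8.02, 8.15 and 8.13 in the controls, the groups did not overlap, but the gap was 0.05 and the log2 difference 0.13 (-0.04 to 0.30). This was the 1 set of the 18 outside *Bmi1* and *Commd3* whose *Ezh2* cko arrays all lay above the controls, and in none of the 18 was every *Ezh2* cko array below, compared with 5.72% and 7.27% of all probe sets.

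*Pcgf6*, whose product belongs to the variant complex with L3mbtl2, E2f6 and Mga, was read differently by its 3 probe sets. On 1424081_at its log2 signal was 10.45, 10.45 and 10.24 in the *Ezh2* cko samples, against 10.63, 10.45 and 10.44 in the controls, a difference of -0.13 (95% interval -0.34 to 0.08). Its set 1454120_a_at had the widest spread of the 22, at 7.94, 7.86 and 7.44 in the *Ezh2* cko samples against 7.88, 7.15 and 7.995 in the controls, with control replicate 2 far below the other controls and a difference of 0.07 (-0.44 to 0.57). The third set, 1432108_at, gave 0.18 (-0.11 to 0.48). The sets thus differ in sign, each with an interval that holds 0.

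Of the Ring ligases, *Ring1* has 1 probe set, at 7.31, 7.22 and 7.24 in the *Ezh2* cko samples, against 7.26, 7.31 and 7.10 in the controls. The log2 difference was 0.03 (95% interval -0.16 to 0.22). *Rnf2*, which encodes the ligase that carries most of the H2A ubiquitylation in mouse embryonic stem cells, was at 11.51, 11.56 and 11.47 on 1424873_at in the *Ezh2* cko samples, against 11.48, 11.47 and 11.57 in the controls. The 2 groups cover almost the same range, and the difference was 0.00 (-0.17 to 0.17). A second set, 1451519_at, gave 0.08 (-0.18 to 0.33). The other 3 sets of *Rnf2*, with mean signals of 4.25 to 4.81 and no transcript record in the annotation, gave -0.12, 0.07 and -0.17, and 2 of them are of the kinds that may cross-hybridize (_s_at and _x_at).

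Over the 18 probe sets of the other *Pcgf* genes, *Ring1* and *Rnf2*, 12 differences were positive and 6 negative, between -0.17 and 0.18, with a median of 0.03 against -0.02 over all probe sets. All 18 intervals held 0, and 0 of the 18 were at an unadjusted p under 0.05 in limma, where 7.55% of all probe sets were (3400 of 45037). By the unpaired test that the methods name it was 1 of the 18, against 6.72% of all probe sets. Nothing is read from these counts. The highest upper bound of their intervals was 0.57, and the lowest lower bound for *Bmi1* and *Commd3* was 0.67. The intervals of the 2 sets of genes therefore did not meet, which describes the values by which *Bmi1* was chosen. Of the 22 sets, 14 had a mean above the median of all probe sets, including all 4 of *Bmi1* and *Commd3* and 10 of the other 18.

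**Figure D2:**
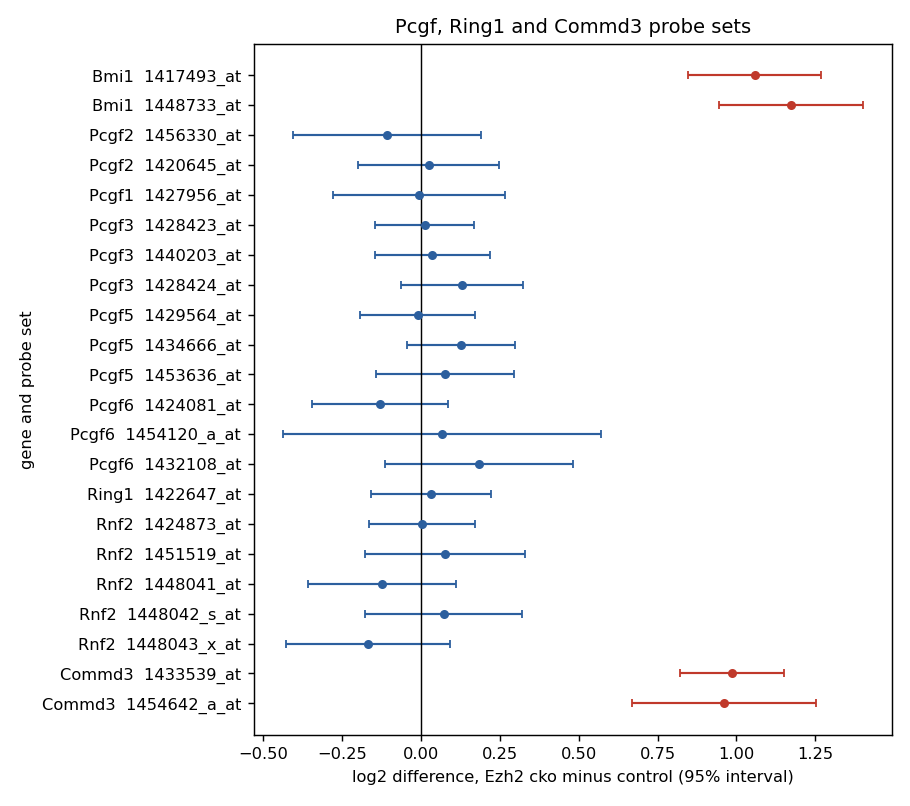
Log2 difference, *Ezh2* cko minus control, with its 95% interval from limma (x axis) for each of the 22 probe sets (y axis, gene and probe set), with *Bmi1* and *Commd3* in red and the other genes in blue. The red points lie between 0.96 and 1.17, and the blue points between -0.17 and 0.18, with intervals that hold 0.

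**Figure D3:**
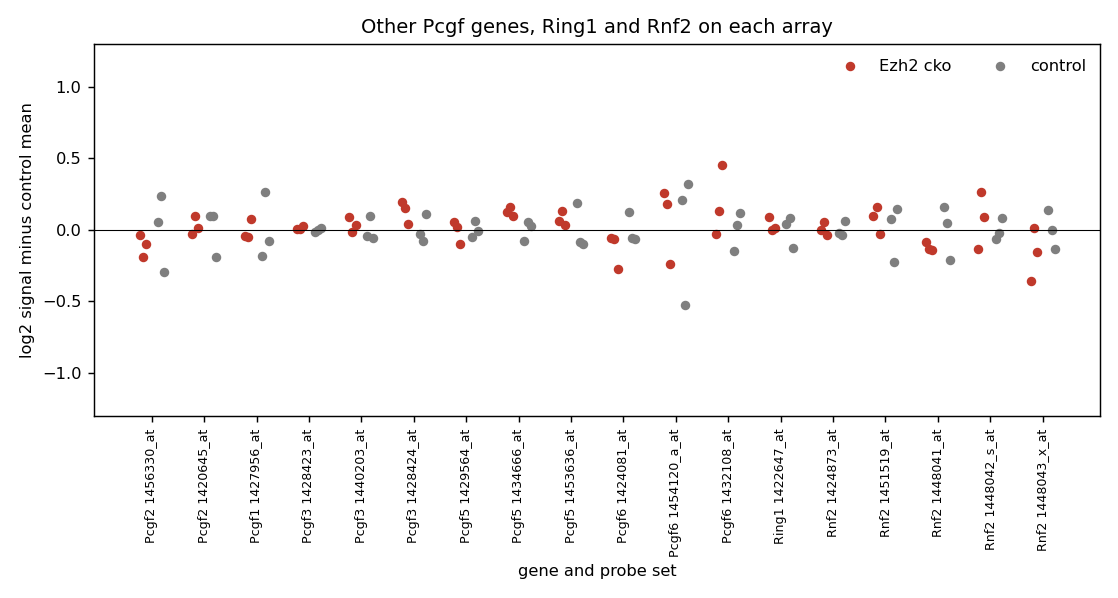
Log2 signal relative to the mean of the controls on that probe set (y axis) for the 18 probe sets of the other *Pcgf* genes, *Ring1* and *Rnf2* (x axis) on each *Ezh2* cko (red) and control (grey) array. The points of the groups are mixed on 17 of the 18 sets and lie apart by 0.05 on 1434666_at of *Pcgf5*.

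The step was not seen in the genes that flank the pair, which the choice of the group did not use. Of the 5 annotated genes on each side of *Commd3* and *Bmi1*, 3 have a probe set, all on the side of *Bmi1*. *Spag6*, a gene of ciliary and flagellar structure, had log2 signals of 2.85, 2.96 and 3.14 in the *Ezh2* cko samples, against 2.89, 3.12 and 3.00 in the controls, a difference of -0.02 (95% interval -0.25 to 0.21, limma adjusted p = 0.981). The long non-coding RNA genes *Gm3363* and *Carlr* gave -0.06 (adjusted p = 0.938) and 0.06 (adjusted p = 0.934). All 3 signals were low, and whether these sets follow their transcripts at such signals was not tested.

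A wider stretch, added after the values were seen, held the 10 nearest genes with a probe set on each side, 20 genes with 41 probe sets. None of these sets passed the adjusted p, 2 were at an unadjusted p under 0.05 (7.55% of all probe sets were), and the median log2 difference was -0.003. On the side of *Commd3*, the nearest measured gene was *Dnajc1*, a chaperone of the endoplasmic reticulum, at 7.82, 7.78 and 7.58 in the *Ezh2* cko samples against 7.63, 7.77 and 7.58 in the controls (difference 0.07, adjusted p = 0.921). On the side of *Bmi1*, *Pip4k2a*, which encodes a phosphoinositide kinase, was at 8.71, 8.66 and 8.57 in the *Ezh2* cko samples against 8.53, 8.73 and 8.52 in the controls (difference 0.05, adjusted p = 0.932). The largest difference of the 41 was that of *Cacnb2*, a calcium channel subunit gene and the farthest of the 10 on the side of *Commd3*, at 0.43 (95% interval 0.12 to 0.75, adjusted p = 0.467).

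**Figure D4:**
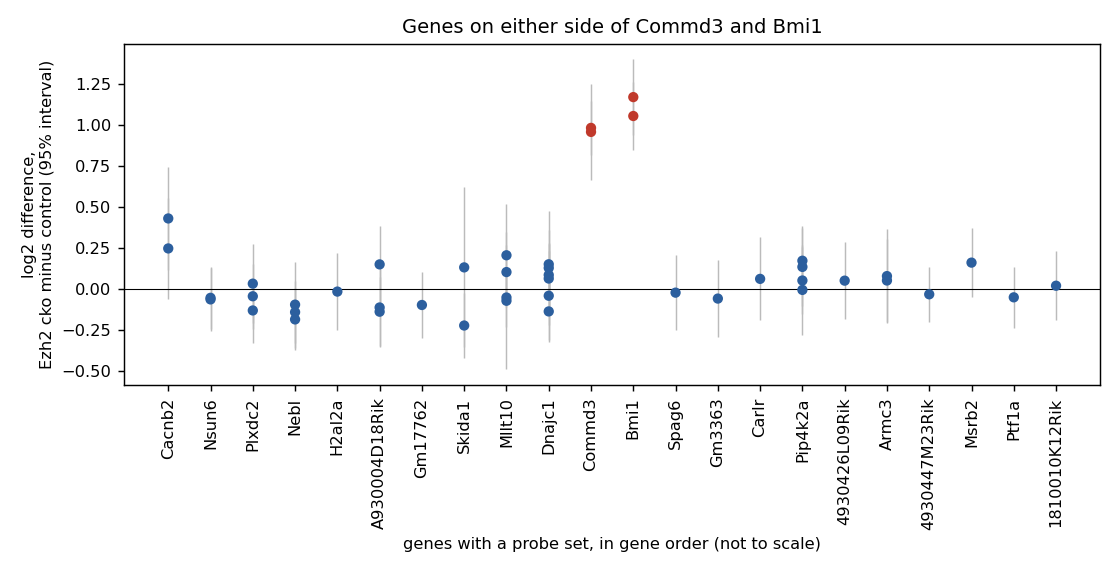
Log2 difference, *Ezh2* cko minus control, with its 95% interval (y axis) for each probe set of *Commd3* and *Bmi1* (red) and of the 10 nearest measured genes on each side (blue), in gene order (x axis, not to scale). *Commd3* and *Bmi1* lie near 1, and the 41 other sets between -0.22 and 0.43.

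The other Commd genes were examined as the family of *Commd3*. Of 9 measured, none passed the adjusted p in either direction, none was at an unadjusted p under 0.05 (8.87% of all genes were, 1614 of 18193), and the median log2 difference was -0.03, against -0.02 over all genes. The largest differences were 0.21 for *Commd9* (adjusted p = 0.696) and -0.14 for *Commd7* (adjusted p = 0.805). *Commd4* and *Commd10* followed with -0.09 and 0.08.

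Around the Pcgf and Ring core, no other Polycomb gene on the lists used passed the test. Of 54 listed, 51 were measured with 1 probe set each, and 0 rose and 0 fell in limma at the adjusted p, where 0.297% of all genes rose (54 of 18193) and 0.0055% fell (1 of 18193). So few of all genes passed that 0 of 51 is near these shares, and nothing is read from it. At an unadjusted p under 0.05 there were 2 of the 51 in limma, where 8.87% of all genes were, and 5 of the 51 by the unpaired test of the methods, where 8.16% were. Over all 148 probe sets of these genes, 13 were at an unadjusted p under 0.05, against 7.55% of all probe sets, and the lowest adjusted p was 0.195. The median log2 difference of the 51 was -0.01.

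Among 9 genes of the Cbx, Phc and Scm subunits of canonical PRC1, the median log2 difference was 0.08. *Cbx7*, whose product reads H3K27me3, had a difference of 0.22 (standard error 0.17, adjusted p = 0.829), with *Ezh2* cko samples at 5.83, 5.58 and 5.65 against controls at 5.81, 5.08 and 5.53. *Cbx8*, another reader, had one of 0.17 (adjusted p = 0.679), and *Phc3* and *Scmh1*, which encode subunits with SAM domains, -0.13 and 0.13. Among 21 partners of variant PRC1, with a median of -0.03, the largest difference was that of *Bcor*, the corepressor that joins Pcgf1. It was at 9.13, 8.92 and 9.004 in the *Ezh2* cko samples, against 8.83, 8.69 and 8.83 in the controls, a difference of 0.23 (standard error 0.09, adjusted p = 0.568). Another set of *Bcor* gave 0.37 (standard error 0.09, adjusted p = 0.253). *L3mbtl2*, the partner of Pcgf6, stood at -0.21 (adjusted p = 0.697), *Fbrsl1* at 0.17 and the casein kinase gene *Csnk2a1* at -0.12.

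The 12 PRC2 genes were the most even, with a median of -0.03, differences of -0.13 (*Epop*) to 0.11 (*Jarid2*), and no unadjusted p under 0.05. *Mtf2* and *Eed* gave -0.07 and -0.07. *Ezh2* itself was at 11.79, 11.74 and 11.72 in the *Ezh2* cko samples, against 11.69, 11.76 and 11.66 in the controls. Whether its probe set lies in the deleted SET part is not given in the sources used here, so it does not check the deletion. Of 9 genes of H2A deubiquitination, which reverses the mark of PRC1, *Asxl3*, a cofactor of the deubiquitinase Bap1, was at 8.13, 8.14 and 8.16 in the *Ezh2* cko samples, against 7.64, 7.91 and 7.89 in the controls. Its groups did not overlap, but the difference of 0.33 (standard error 0.09) did not pass (adjusted p = 0.355). *Mysm1*, *Usp16* and *Asxl2* gave 0.14, -0.13 and 0.06, and another set of *Asxl2* gave -0.54 (adjusted p = 0.195).

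**Figure D5:**
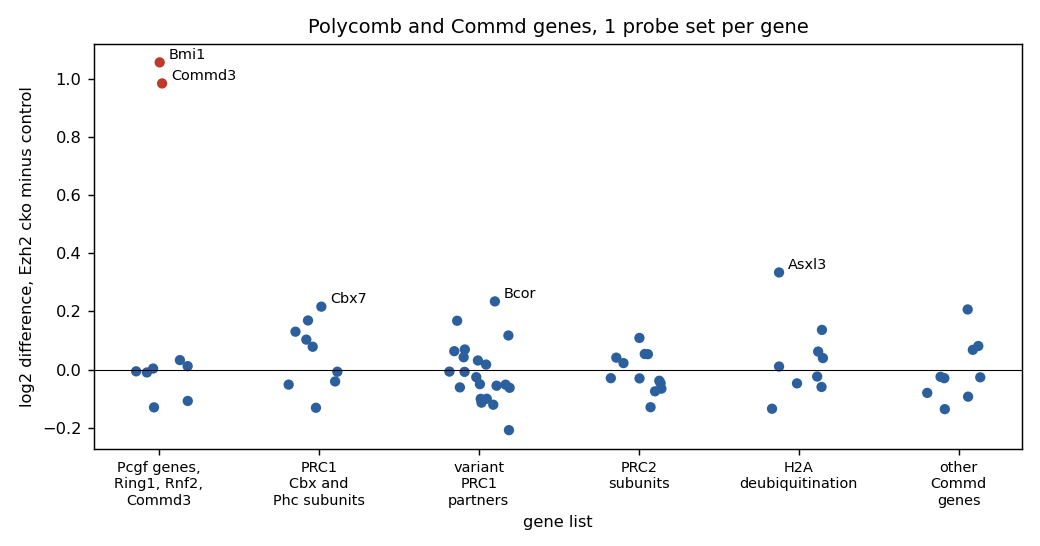
Log2 difference, *Ezh2* cko minus control (y axis), of each gene by list (x axis), with 1 probe set per gene, the one with the highest mean, and horizontal scatter only to separate points. *Bmi1* and *Commd3* (red) lie near 1, and all other genes shown lie between -0.21 and 0.33.

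A Polycomb gene outside those lists, *Sfmbt2*, was picked after its values were seen. It encodes a protein with MBT domains related to the fly Polycomb protein Sfmbt. On 1434353_at it was at 7.46, 7.37 and 7.39 in the *Ezh2* cko samples, against 6.29, 6.11 and 6.33 in the controls, a log2 difference of 1.16 (standard error 0.09, adjusted p = 0.00418). Its other set, with a mean of 3.85, gave 0.02.

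The genes whose values over the 6 arrays were most like the mean of the *Bmi1* sets were sought among 2273 genes with a SD of at least 0.2. They were *Foxa1* (Pearson r 0.992), a transcription factor gene of the floor plate, *Fgf3* (0.991), a growth factor gene, *Ccdc106* (0.989), *Dmrta1* (0.988), a gene of the DM domain family, and *Ankrd34b* (0.986). *Foxa1* was at 6.49, 6.49 and 6.58 in the *Ezh2* cko samples, against 5.44, 5.08 and 5.35 in the controls. Each of the 5 correlations comes from 6 arrays that fall into 2 genotypes and describes a shared step, and no test was made of it.

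*Bmi1* is known to repress *Cdkn2a*, *Cdkn2b* and *Cdkn1a*, which encode inhibitors of the cell cycle. On the representing probe sets, the log2 differences of these 3 genes were 1.42 (adjusted p = 0.542), 0.68 (adjusted p = 0.367) and 0.58 (adjusted p = 0.458), with all *Ezh2* cko arrays above the controls and none past the test, although a second set of *Cdkn1a* passed at 0.71 (adjusted p = 0.0424) and lost this call without any 1 array (adjusted p of 0.0877 to 0.167). Over all genes, 1369 of 18193 had every *Ezh2* cko array above every control, and 0.297% were higher past the adjusted p in limma. Whether these 3 genes are linked to the step of *Bmi1* was not tested. The value of *Cdkn2a* rested largely on 1 array, since its log2 signal was 4.88, 4.81 and 6.94 in the *Ezh2* cko samples, against 4.23, 4.398 and 3.75 in the controls, and without *Ezh2* cko replicate 3 the difference was 0.72 (adjusted p = 0.456).

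No marker of the midbrain, of progenitors or of other cell types on the lists passed the adjusted p on the probe set that represents its gene. Many of these genes have further probe sets, which are not given here. All 7 midbrain and all 11 progenitor markers had means above the median of all probe sets. The 7 midbrain differences were all positive, with a median of 0.28, 3 at an unadjusted p under 0.05 and the largest for *Wnt1* (0.90, adjusted p = 0.0712) and *Lmx1b* (0.57, adjusted p = 0.214). The progenitor markers had a median of -0.03, with 5 of 11 positive, and ran from -0.44 for *Sox3* to 0.49 for *Fabp7*. Over all genes, 43.1% of differences were positive and 8.87% were at an unadjusted p under 0.05. The mean log2 signal of 15 neuron markers was 10.02, 10.26 and 10.47 in the *Ezh2* cko samples, against 9.65, 10.01 and 10.01 in the controls, with all 15 differences positive and 8 at an unadjusted p under 0.05. For 10 mesenchyme markers it was 9.39, 9.46 and 9.60 in the *Ezh2* cko samples against 8.91, 9.31 and 9.27 in the controls (10 of 10 positive, 5 at an unadjusted p under 0.05), and for 9 macrophage markers 7.14, 7.03 and 7.25 in the *Ezh2* cko samples against 6.49, 6.96 and 7.07 in the controls (9 of 9 positive, 2 at an unadjusted p under 0.05). The median differences of these lists were 0.36, 0.35 and 0.30. Endothelial and erythroid markers had medians of 0.07 and -0.12, and 14 proliferation markers one of -0.05. The part of these markers in the differences of *Bmi1* and *Commd3* was not tested beyond the values that follow.

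These marker signals can be set beside *Bmi1* array by array. The mean of the *Bmi1* sets was 11.69, 11.84 and 11.92 in *Ezh2* cko replicates 1, 2 and 3, against 10.76, 10.60 and 10.75 in control replicates 1, 2 and 3. When the neuron marker mean was added to the fit, which was decided after seeing the data, the log2 differences were 1.08 and 1.03 for the sets of *Bmi1* and 0.95 and 0.75 for those of *Commd3*. With the mesenchyme markers as a term they were 1.15, 1.08, 0.94 and 0.80. None of these 4 sets passed the adjusted p in either fit, in which 4 and 0 of all probe sets were higher. Both marker means differ between the genotypes, so each term overlaps with the contrast and widens its error. For 1417493_at of *Bmi1* the standard error was 0.14 in both fits, against 0.09 without a term. Whether the markers account for the step was not tested.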

How the data were processed

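Total RNA of 3 *Ezh2* cko and 3 control dorsal midbrains was hybridized to 1 Affymetrix array each, which the methods call A430. The authors deposited a log2 signal for each probe set, made with RMA, which corrects background, equalizes the distributions between arrays and summarizes probes. The RMA version is not given in the sources used here. Equal distributions make values relative to the array, so a shift of most genes would not be seen. Array signals carry no depth, and the number of arrays limits the precision.

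The 64 control probe sets were left out. Linear models of *Ezh2* cko minus control were fitted to the remaining 45037 (lmFit and eBayes of limma 3.58.1, R 4.3.3), and p-values were Benjamini-Hochberg adjusted over all of them. Symbols came from the platform annotation, with list genes updated through Entrez identifiers (34741 of 34945 matched GRCm38.p6). A gene was represented by its set with the highest mean. Promoter sequences were from RefSeq. The members and lists were chosen with earlier results of these data known. Named were all members, flanking genes within 5 annotated genes, list genes past the adjusted p and otherwise up to 4 per list with the largest differences, and the 5 genes most like *Bmi1*. Alternatives were other priors, weights, tests, normalizations, filters, thresholds and gene summaries, a replicate block, single arrays left out and, chosen after seeing the data, marker terms and more flanking genes. The fit was tested on simulated data.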

Additional observations from a re-analysis of the deposited data

How the results depend on the processing

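The 4 higher probe sets of *Bmi1* and *Commd3* were also 4 with a trended and robust prior, array weights, the median filter, all 3 normalizations, the replicate block and the thresholds of the methods, and 3 when _s_at, _x_at and _a_at sets, which include 1 of *Commd3*, were removed. They were 3 without any 1 array (range 3 to 3). Over all probe sets, 83 were higher in the main fit, 106 with the trended prior and 81 with array weights. With the median filter 64 were higher, with quantile normalization 77 and with median centring 84. All of these fits repeat the contrast that led to the choice of *Bmi1*, so nothing is read from these counts. With the unpaired test of the methods the member count was 0, as were those over all probe sets in both directions (0 and 0), where 3025 of all probe sets were at an unadjusted p under 0.05. With neuron markers as a term the member count was 0, with 4 higher and 1 lower over all probe sets, and with mesenchyme markers 0, with 0 higher and 0 lower. The 51 other Polycomb genes gave 0 in both directions throughout. Without single arrays the higher probe sets ranged from 20 to 44 and the lower from 1 to 4. The lower count was 5 with the trended prior, 1 without the _s_at, _x_at and _a_at sets and 9 at the thresholds of the methods.

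The labels share replicate numbers, but these mark no known litter, and the deviations of same-numbered samples correlated at 0.06, -0.20 and 0.06. With the replicate block, 56 sets were higher and 3 lower. Of 327 alternative log2 differences of the members, 307 moved by less than 1 SD between replicates, 20 moved by more and none of those called changed sign. The median filter, the removal of _s_at, _x_at and _a_at sets and the replicate block cannot change a difference. Leaving out 1 of 3 arrays in a group can shift a difference, but always by less than 1 SD. A large part of the 307 was therefore fixed in advance, and nothing is read from this count. The other 18 member sets were called in 0 of 313 fits, with differences of -0.26 to 0.47. The causes were not tested. Signals below the median of all sets limit what *Pcgf2* and the flanking genes *Spag6*, *Gm3363* and *Carlr* can show. The sets that represent *Dnajc1* and *Pip4k2a* lie above that median.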
